A study of Mus musculus with 3 samples.

Results

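Tubulins, actins, tropomyosins, myosins and their closest partners build the microtubules and actin filaments of a cell. They were followed here as 93 of the 17285 gene rows measured in B16 mouse melanoma cells. Members were chosen by gene symbol alone: alpha to epsilon tubulins and the proteins of the gamma tubulin complex, the tubulin acetyltransferase Atat1, 6 actins, the Arp2/3 subunits, cofilins, alpha actinins, tropomyosins, and myosin heavy and light chains. The motor gene Myo5a was left out by that rule. All 3 samples, Mock replicates 1, 2 and 3, are 1 group, a stable B16 line that carries an empty vector, so no condition could be compared. The samples are labelled as numbered libraries of this line, and nothing in the labels ties them to separate cultures. Every p-value therefore holds for these 3 libraries only, whose spread may be technical. The extraction text also mentions organs, although each sample is labelled as the cell line.

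Microtubules are hollow polymers of alpha and beta tubulin dimers that are nucleated by gamma tubulin. Mammals have several genes for each, and the encoded isotypes differ mostly in a short acidic tail at the carboxyl end, which carries many of the known modifications. Actin filaments are made of cytoplasmic or muscle actins, branched by the Arp2/3 complex, severed by cofilin, bundled by alpha actinin, coated by tropomyosin and pulled by myosins. In melanoma cells these filaments are known for driving shape change, migration and division.

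The libraries held 9328087, 9456501 and 9438894 rounded counts. Of the pigment cell markers, 8 of 8 were above 1 CPM (reads of a gene relative to all reads of its library, scaled by TMM factors), against 74.3% of all genes with a count. The summed level of these markers was 23050 to 24384 CPM. Tyrp1 at 12337 ± 399 CPM and Gpnmb at 5830 ± 190 CPM led, and Tyr was lowest at 6.52 ± 0.839 CPM. Levels given with ± are means with the SD over n = 3 libraries. One read was worth 0.106 to 0.107 CPM, and a gene without reads can lie at up to 0.106 CPM, the limit that 3 counts over the group allow. These limits and all intervals below cover counting error only. All 5 neuronal markers and 3 of 4 fibroblast markers had no count, while the muscle lists held scattered genes that are described with the muscle isoforms. Of 2 intestinal markers measured, Lgals4 was above 1 CPM at 1.70 ± 0.432 CPM and Vil1 below. Of 3 male germ cell markers measured, Ddx4 was unresolved, Prm1 below and Dazl without a count.

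The highest members in CPM were Tuba1b, Actb, Actg1, Tubb5 and Cfl1. Of the 93 members, 55 were above 1 CPM, 20 below, 5 unresolved and 13 had no count (edgeR quasi-likelihood F test, adjusted p under 0.05 over all 14408 genes with a count). The 55 make up 68.8% of the 80 members tested, against 74.3% of all genes tested. The 20 make up 25% of those tested, against 20.2% of all genes, and the 13 are 14.0% of the members, against 16.6% of the table's rows. Both shares of the members lay near those of all genes, so the counts say nothing particular to the members. The median level was 13.8 CPM over the 93 members and 12.6 CPM over all rows. Members called above began at 2.20 CPM, while members called below had 1 to 8 reads in all. Reads of all 93 members made up 1.78 ± 0.0290% of all counts. The 5 members above 1000 CPM, Tuba1b, Actb, Actg1, Tubb5 and Cfl1, held 53.0% of the member reads.

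**Figure D1:**
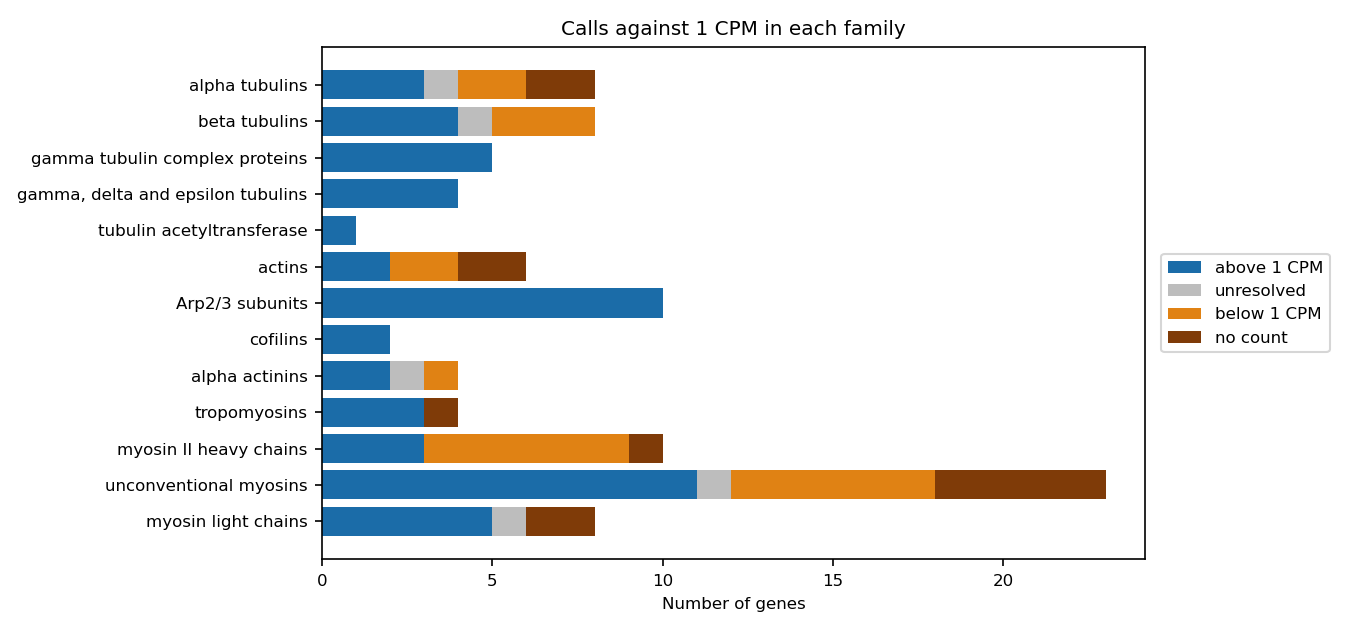
Number of genes in each family (horizontal axis) that were above 1 CPM, unresolved, below 1 CPM or without a count. All 10 Arp2/3 subunits and all 5 gamma tubulin complex genes were above, whereas 3 of 10 myosin II heavy chains and 2 of 6 actins were.

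**Figure D2:**
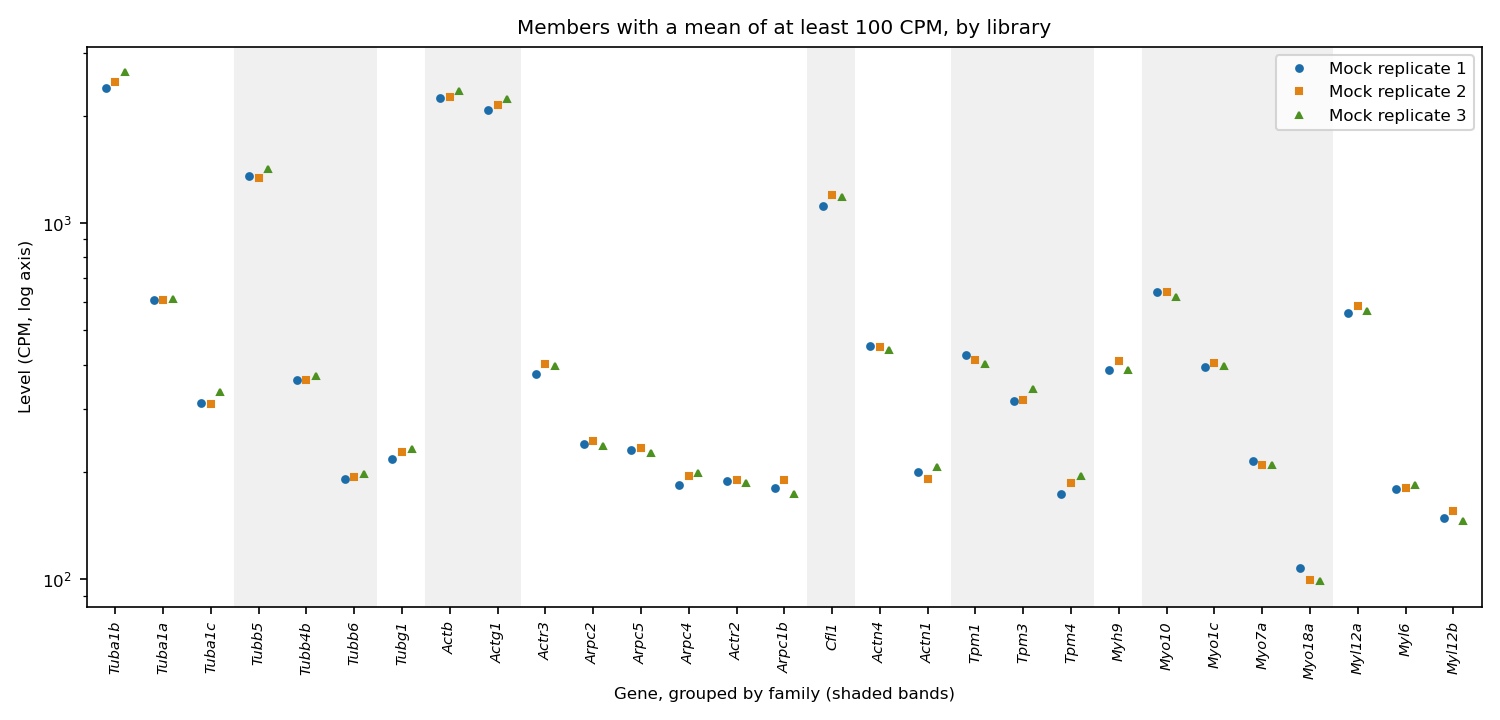
Level in CPM (log axis) of the 29 members with a mean of at least 100 CPM, with 1 symbol for each of the 3 Mock libraries, grouped by family in shaded and unshaded bands. The symbols of a gene lie close together, and Tuba1b and both cytoplasmic actins stand highest, at 2142 to 2503 CPM on average.

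A trio of alpha tubulin genes, Tuba1b, Tuba1a and Tuba1c, carried nearly all alpha tubulin reads. Tuba1b (chromosome 15, 98931425 to 98934565, minus strand, GRCm38) stood at 2389, 2478 and 2643 CPM in replicates 1, 2 and 3. Tuba1a (chromosome 15, 98949837 to 98953703, minus strand) stood at 607, 607 and 612 CPM, and Tuba1c (chromosome 15, 99029891 to 99038110, plus strand) at 312, 309 and 335 CPM. These neighbours did not overlap in level in any library. Per kilobase of annotated exon, Tuba1b made up 73.6 ± 0.722% of alpha tubulin reads, Tuba1a 18.6 ± 0.678% and Tuba1c 7.69 ± 0.132%. Tuba1b exceeded Tuba1a by 3.95 ± 0.183 times per kilobase.

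The 3 genes are close copies, which limits how well reads can be told apart. Over the whole coding sequence Tuba1a was 98.3% and Tuba1c 98.4% identical to Tuba1b. Of the 31-base words of their transcripts, 78.7% for Tuba1b, 78.6% for Tuba1a and 55.3% for Tuba1c also occur in another annotated gene. All 3 have fractional counts in the deposited table, so the split between them is uncertain. The family summed to 3310, 3394 and 3591 CPM.

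The other alpha tubulins were at or near the floor. Tuba4a was unresolved (edgeR adjusted p = 0.515, between 0.0404 and 0.898 in other settings), with 16, 0 and 5 rounded reads, and 35.6% of its words are shared with the neighbour Stk16. The other settings, in this and every later range, include tests against 0.5 and 2 CPM and tests other than that of edgeR. An end of a range therefore need not refer to 1 CPM. Tuba3a, known from testis, had 8 reads in all, with 45.5% of its words shared with Tuba3b, and Tubal3 had 1, and both were below 1 CPM (edgeR adjusted p = 0.003 and 6.10e-04). Tuba3b and Tuba8 had no count. Tuba8 was at least 28427-fold lower than Tuba1b per kilobase, with 3 counts over the group as the floor.

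Of 8 beta tubulin genes, 4 were above 1 CPM. Tubb5 (chromosome 17, 35833921 to 35838306, minus strand), the broadly used class I isotype, stood at 1351, 1340 and 1414 CPM in replicates 1, 2 and 3. Tubb4b (chromosome 2, 25222160 to 25224702, minus strand), the class IVb isotype, stood at 363, 363 and 371 CPM, and Tubb6, the class V isotype, at 191, 194 and 197 CPM. Tubb3, the class III isotype best known from neurons, stood at 79.5, 79.7 and 80.4 CPM. The levels of the 4 did not overlap in any library. Their shares per kilobase were 57.96 ± 0.435% for Tubb5, 24.7 ± 0.196% for Tubb4b, 11.2 ± 0.134% for Tubb6 and 6.03 ± 0.0955% for Tubb3. Without length correction Tubb5 was at 68.1% of beta tubulin reads. Per kilobase, alpha tubulin reads exceeded beta tubulin reads by 2.55 ± 0.0593 times. The ratio was 1.71 ± 0.0379 in plain reads and 1.68 ± 0.0374 per kilobase of coding sequence.

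The last 60 coding bases of Tubb5, Tubb4b and Tubb3 before the stop codon are shown because they encode the tail that distinguishes isotypes. They are read 5′ to 3′ from the GENCODE M21 transcripts of GRCm38 and lie in exon 4 of 4 at chromosome 17, 35834985 to 35835044 (minus strand), chromosome 2, 25222311 to 25222370 (minus strand), and chromosome 8, 123421620 to 123421679 (plus strand). Capitals mark bases that an alignment did not pair with the same base of Tubb5, 16 in Tubb4b and 25 in Tubb3.
Tubb5: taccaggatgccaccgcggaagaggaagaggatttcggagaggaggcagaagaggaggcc
Tubb4b: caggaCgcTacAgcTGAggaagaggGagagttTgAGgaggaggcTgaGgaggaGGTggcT
Tubb3: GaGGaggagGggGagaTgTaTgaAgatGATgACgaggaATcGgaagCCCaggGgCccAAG
Whole coding sequences were 82.5% identical between Tubb4b and Tubb5 and 81.5% between Tubb3 and Tubb5. Tubb5 shared 3.50% and Tubb3 3.21% of its words with another gene, whereas Tubb4b shared 53.0%, mainly with the pseudogene Tubb4b-ps1.

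Tubb2a and Tubb2b, the class II isotypes, had only 7 and 8 reads in all and were below 1 CPM (edgeR adjusted p = 0.00221 and 0.0288). They were 2670-fold (exact 95% interval 1296 to 6641) and 3328-fold (1689 to 7710) lower than Tubb5 per kilobase. In plain reads Tubb2a was 5517-fold lower. Both have fractional counts and were 96.5% identical to each other, so their split is uncertain. Leaving out replicate 2 or replicate 3 ended the call of Tubb2b, with an edgeR adjusted p of 0.167 and 0.231. Over every setting tried it ran between 1.99e-05 and 0.553. Tubb1, the isotype of platelets, had 2 reads, both in replicate 2, and was below (edgeR adjusted p = 0.0016). Leaving out replicate 1 ended that call, with an edgeR adjusted p of 0.051. Of the 2 platelet markers measured, Gp9 was below and Itga2b unresolved. Tubb4a, the class IVa isotype of nerve tissue, was unresolved at 0.815 ± 0.247 CPM (edgeR adjusted p = 0.38, range 0.00256 to 0.930).

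The nucleation genes were all above 1 CPM. Tubg1 (chromosome 11, 101119938 to 101126419, plus strand), the main gamma tubulin, stood at 217, 227 and 231 CPM, and its paralog Tubg2 at 12.8, 14.8 and 13.7 CPM. Per kilobase Tubg1 exceeded Tubg2 by 12.7 ± 0.711 times. Both have fractional counts, and 23.6% of the words of Tubg2 also occur in Tubg1. The gamma tubulin complex genes ranged from Tubgcp2 at 95.3 ± 4.89 CPM through Tubgcp4 (73.4 ± 3.18), Tubgcp6 (65.98 ± 3.54) and Tubgcp3 (56.7 ± 4.44) to Tubgcp5 at 24.2 ± 2.40 CPM. Reads of Tubgcp4 are uncertain, since 24.0% of its words are shared with the neighbour Trp53bp1. Delta tubulin (Tubd1) and epsilon tubulin (Tube1), which act at centrioles, were low at 4.75 ± 0.0751 and 4.78 ± 1.76 CPM. Atat1, which acetylates alpha tubulin inside the microtubule, stood at 13.5, 14.9 and 8.59 CPM.

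Of the genes that fold or modify tubulin, 21 of 21 listed were above 1 CPM, against 74.3% of all genes tested. The list median was 31.1 CPM, against 23.6 CPM over all genes tested. Stmn1, whose protein sequesters tubulin dimers, led at 195 ± 5.48 CPM, followed by the deacetylase gene Sirt2 at 140 ± 7.59 CPM and the folding cofactor gene Tbcd at 98.96 ± 2.28 CPM. Hdac6, the main tubulin deacetylase, stood at 43.8 ± 1.76 CPM. Of 16 microtubule-associated protein genes, 14 were above, led by Mapre1, which tracks growing ends, at 194 ± 5.38 CPM, Map4 at 183 ± 2.90 CPM and the polymerase gene Ckap5 at 113 ± 5.20 CPM. The neuronal gene Dcx was unresolved and Map7 had no count.

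Actin reads came from the genes of both cytoplasmic actins in near equal amounts. Actb (chromosome 5, 142903115 to 142906754, minus strand) stood at 2237, 2253 and 2340.0 CPM in replicates 1, 2 and 3, and Actg1 (chromosome 11, 120345690 to 120348542, minus strand) at 2071, 2136 and 2219 CPM. The lowest value of Actb lay just above the highest of Actg1, so the genes did not overlap, but the gap was small. Per kilobase Actb made up 51.3 ± 0.346% of actin reads and Actg1 48.7 ± 0.345%, a ratio of 1.05 ± 0.0146. Per kilobase, actin reads were 0.657 ± 0.00474 times those of alpha and beta tubulin together, and per kilobase of coding sequence 0.972 ± 0.00657 times. Actb shared 23.6% and Actg1 40.2% of its words with another gene, for Actg1 mainly the annotated gene Gm12715.

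The muscle actins were absent or nearly so. Acta2, of smooth muscle, and Actc1, of heart, had no count, which puts them at least 17558-fold and 12937-fold below Actb per kilobase. Acta1, of skeletal muscle, had 1 read in each library and Actg2, of visceral smooth muscle, 1 read in all. Both were below 1 CPM (edgeR adjusted p = 6.05e-04 and 6.10e-04), at 12281-fold (exact 95% interval 4202 to 59554) and 37347-fold (6703 to 1475150) lower than Actb. In plain reads Acta1 was 21420-fold and Actg2 64260-fold lower, and Actc1 at least 21420-fold. The first 30 coding bases are shown because actins differ most at their amino end. They lie in exon 2 at chromosome 5, 142905657 to 142905686 for Actb, chromosome 11, 120348062 to 120348091 for Actg1, and chromosome 8, 123893668 to 123893697 for Acta1, all on the minus strand. Capitals mark bases not paired with the same base of Actb, 8 in Actg1 and 13 in Acta1.
Actb: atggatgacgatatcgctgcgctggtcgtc
Actg1: atggaAgaAgaAatcgcCgcActCgtcAtT
Acta1: atgTGCGACgaAgacgaGaCcAcCgcTctT
Over whole coding sequences Actg1 was 88.6% and Acta1 84.8% identical to Actb.

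Actin genes and their relatives are known targets of the factor SRF, which binds the CArG box. Such a box was searched on both strands in windows from 250 bases before to 50 bases after annotated starts (RefSeq, GRCm38.p6), held for 78 members. Only the exact pattern CCWWWWWWGG, with W for A or T, was counted, so boxes with a deviating base were not found. A gene with several windows was counted if any of them held a box. A box occurred in the windows of 8 of these members (10.3%) and of 1.81% of all 27025 genes with a window. No window of Actb was held, so it was not searched. The 8 were Actg1, Actc1, Acta1, Myl9, Myl6, Myh4, Myo1e and Arpc4. For Myl6 the box lies in a window inside the gene (128492960 to 128493259). The window at its outer start (128493837 to 128494136) holds none. The box is in capitals in the 5 windows below, chosen to set abundant beside absent genes. They lie at chromosome 11, 120348566 to 120348595 (minus) for Actg1, chromosome 10, 128493040 to 128493069 (minus) for Myl6, chromosome 2, 156775293 to 156775322 (plus) for Myl9, chromosome 8, 123894829 to 123894858 (minus) for Acta1, and chromosome 2, 114052903 to 114052932 (minus) for Actc1.
Actg1: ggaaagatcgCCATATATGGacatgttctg
Myl6: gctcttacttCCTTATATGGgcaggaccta
Myl9: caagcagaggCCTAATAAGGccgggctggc
Acta1: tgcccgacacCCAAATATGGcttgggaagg
Actc1: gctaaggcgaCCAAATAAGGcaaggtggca
Levels of the 5 genes ran from 2142 ± 74.1 CPM for Actg1 through 181 ± 1.99 CPM for Myl6 and 6.70 ± 0.508 CPM for Myl9 to 0.106 CPM for Acta1 and no count for Actc1, so a box was present at both ends of the range. Srf stood at 65.5 ± 7.24 CPM, and its coactivator genes Mkl1 and Mkl2 at 33.3 ± 2.36 and 30.9 ± 2.04 CPM.

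All 10 Arp2/3 genes were above 1 CPM. Actr3 and Actr2, the actin-related subunits that seed a branch, stood at 392 ± 12.9 and 189 ± 1.69 CPM. Of the other subunits, Arpc2 reached 240.1 ± 4.17 CPM, Arpc5 230.0 ± 3.18 CPM, Arpc4 193 ± 7.64 CPM and Arpc3 98.6 ± 4.43 CPM. The ratio of Arpc1b to its paralog Arpc1a was 1.05 ± 0.0315 per kilobase of exon, but 2.08 ± 0.0628 in plain reads and 2.05 ± 0.0618 per kilobase of coding sequence. Arpc5 exceeded its paralog Arpc5l by 11.9 ± 0.900 times per kilobase of exon, 6.03 ± 0.455 times in plain reads and 6.11 ± 0.461 times per kilobase of coding sequence. Actr3b, a paralog of Actr3, stood at 2.20 ± 0.117 CPM. The call of Actr3b was lost under DESeq2's Wald test (adjusted p = 0.427). Of the words of Actr3 33.4% also occur in Gm8822 and of those of Arpc1b 17.2% in Pdap1, so their reads are uncertain. The subunit with the largest share depended on the length used: it was Arpc2 per kilobase of exon (21.97 ± 0.184%), Actr3 in plain reads (23.7%) and Arpc5 per kilobase of coding sequence (23.8%).

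The severing factor Cfl1 (chromosome 19, 5490455 to 5495201, plus strand), the nonmuscle cofilin, stood at 1112, 1200 and 1183 CPM, with replicate 1 lowest. Its muscle-type paralog Cfl2 stood at 81.1, 83.6 and 79.97 CPM, and Cfl1 exceeded it by 16.4 ± 0.625 times per kilobase of exon and by 10.4 ± 0.398 times per kilobase of coding sequence. Among the crosslinkers, Actn4 led at 447 ± 6.35 CPM, with Actn1 at 199 ± 7.23 CPM. Their ratio per kilobase was 2.03 ± 0.0933, and both are the nonmuscle alpha actinins. Of the muscle paralogs, Actn2 had 1 read and was below 1 CPM (edgeR adjusted p = 6.10e-04), and Actn3 was unresolved at 0.816 ± 0.434 CPM (edgeR adjusted p = 0.443, range 0.0055 to 0.964).

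Of 4 tropomyosins, 3 were above 1 CPM and Tpm2 had no count. Tpm1 (chromosome 9, 67022590 to 67049406, minus strand) stood at 426, 414 and 401 CPM in replicates 1, 2 and 3, Tpm3 at 317, 318 and 342 CPM, and Tpm4 (chromosome 8, 72134975 to 72153142, plus strand) at 174, 186 and 195 CPM. Tpm1 was thus highest and Tpm4 lowest in reads, without overlap between genes. The order turned round per kilobase of exon, where Tpm4 held 41.7 ± 1.44%, Tpm1 31.7 ± 1.72% and Tpm3 26.6 ± 0.556%. Per kilobase of coding sequence Tpm1 led again at 40.2% and Tpm4 was last at 23.6%, so no tropomyosin can be called the main one from these gene counts. Tpm2, typical of muscle and fibroblasts, had no count and was at least 1746-fold lower than Tpm1 per kilobase, and at least 3891-fold lower in plain reads. Gene counts do not separate the many splice forms of each tropomyosin.

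**Figure D3:**
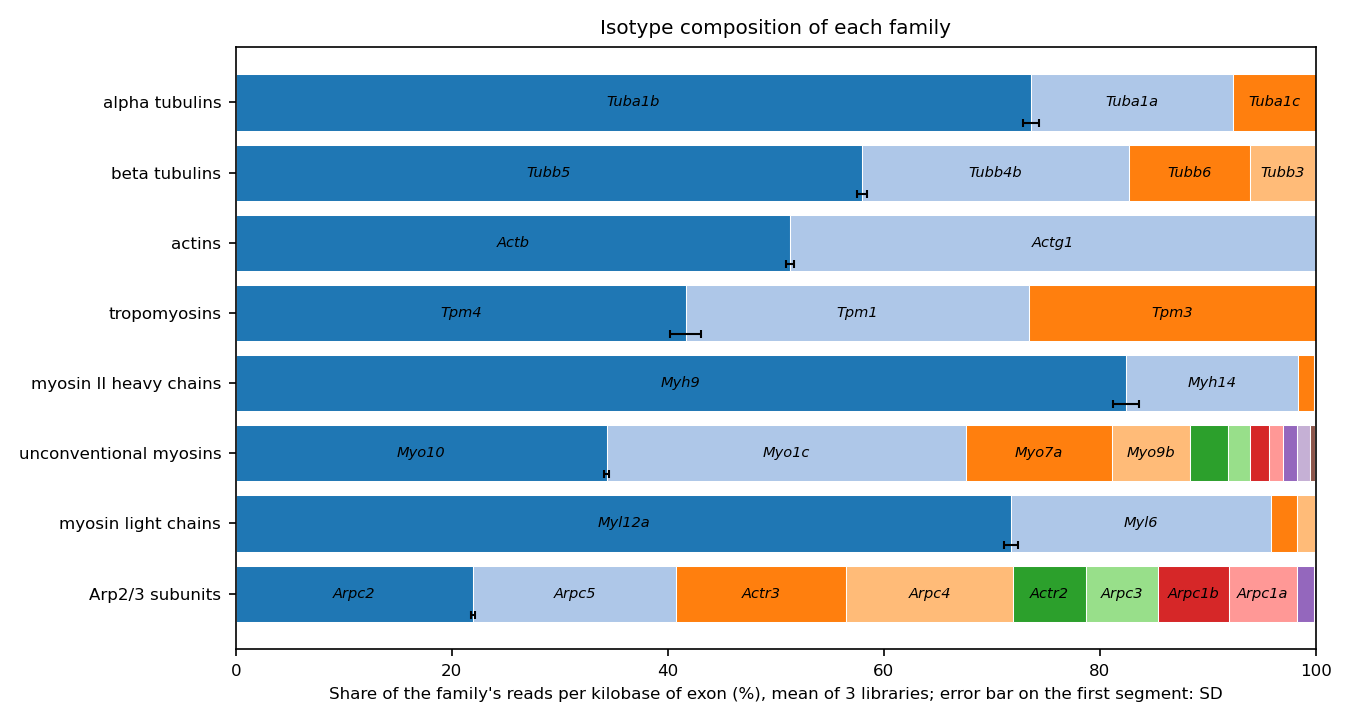
Mean share of each gene in its family's reads per kilobase of exon over the 3 Mock libraries (horizontal axis, percent), with the SD of the leading gene as an error bar. Segments from 5% are named. Tuba1b and Myh9 each hold over 70% of their family, and Actb and Actg1 split the actins about evenly. Light chain shares leave out Myl12b, for which no exon length was held.

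Reads of nonmuscle myosin II heavy chains came mainly from Myh9. Myh9 (chromosome 15, 77760587 to 77842175, minus strand), the IIA heavy chain, stood at 387, 411 and 387 CPM. Myh14, the IIC heavy chain, stood at 46.3, 43.8 and 38.5 CPM, below Myh9 in every library. Per kilobase Myh9 held 82.4 ± 1.23% and Myh14 15.9 ± 1.25% of myosin II heavy chain reads, a ratio of 5.21 ± 0.476. The ratio was 9.26 ± 0.846 in plain reads and 9.61 ± 0.878 per kilobase of coding sequence, where Myh14 held 9.39%. Myh10, the IIB heavy chain, had a single read, in replicate 2, and was below 1 CPM (edgeR adjusted p = 6.10e-04). It was 9013-fold lower than Myh9 per kilobase, with an exact 95% interval of 1617 to 356035.

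Of the 7 muscle-type heavy chains measured, 1 was above 1 CPM. This was Myh3, the embryonic skeletal form, at 3.42, 3.92 and 3.18 CPM (edgeR adjusted p = 4.96e-06), with 11.1% of its words shared with other genes. Its call was lost under DESeq2's Wald test (adjusted p = 0.0645). Myh7, Myh11, Myh15, Myh6 and Myh7b had 1 to 4 reads each and were below, and Myh4 had no count. Without replicate 2, Myh7 was unresolved (edgeR adjusted p = 0.0532, range 3.38e-08 to 0.354). Muscle marker lists were mixed. Of 6 skeletal muscle markers, Des and Neb were above 1 CPM, Ttn and Ckm below, and Tnnc2 and Tnnt3 without a count, with a summed level of 64.7 to 70.5 CPM over the libraries. Of 5 smooth muscle markers, Smtn and Des were above, Myh11 and Cnn1 below and Tagln at 0, with a sum of 150.5 to 153 CPM. Of 6 cardiac markers, Tnnt2 was above, Nppa, Nkx2-5 and Actn2 below, and Tnni3 and Ryr2 at 0, with a sum of 5.94 to 8.38 CPM. The part of these markers in the level of Myh3 was not tested.

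Of 8 light chains, 5 were above 1 CPM, led by those of nonmuscle myosin II. Myl12a (chromosome 17, 70993656 to 71002878, minus strand) and Myl12b, the regulatory chains of nonmuscle myosin II, stood at 570.4 ± 13.7 and 149.9 ± 4.77 CPM, and Myl6, the essential chain, at 181 ± 1.99 CPM. Both Myl12 genes have fractional counts and 17.4% of the words of Myl12a also occur in Myl12b, so their split is uncertain. Myl12a held 62.2 ± 0.342% of light chain reads, Myl6 19.8 ± 0.433% and Myl12b 16.4 ± 0.290%, without length correction. Myl9, a regulatory chain abundant in smooth muscle, stood at 6.70 ± 0.508 CPM, and Myl12a exceeded it by 29.6 ± 2.09 times per kilobase of exon and by 85.5 ± 6.05 times in plain reads or per kilobase of coding sequence. Myl6b stood at 7.13 ± 1.32 CPM. The striated muscle chains Myl1 and Myl2 had no count, and the atrial chain Myl4 was unresolved at 1.03 ± 0.120 CPM (edgeR adjusted p = 0.889, range 0.00545 to 0.988).

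Of the regulators of contraction and crosslinking, 17 of 20 were above 1 CPM, with a median of 146 CPM. Of all genes with a count, 74.3% were above 1 CPM, and the median of those genes was 23.6 CPM. The actin crosslinker Flna led at 960 ± 5.55 CPM, ahead of Tln1, which links integrins to actin, at 582 ± 5.86 CPM and Zyx at 392 ± 14.6 CPM. The kinase genes Rock2 and Rock1 stood at 354 ± 17.0 and 79.7 ± 3.28 CPM. The smooth muscle calponin Cnn1 was below 1 CPM with 2 reads, and Tagln and the muscle chaperone gene Unc45b had no count, while the nonmuscle paralogs Cnn3 and Cnn2 stood at 301 ± 9.65 and 257 ± 3.60 CPM and Tagln2 at 151 ± 9.46 CPM. Of 29 actin turnover genes, 26 were above, led by profilin Pfn1 at 835 ± 36.4 CPM, Cap1 at 398 ± 9.20 CPM and the thymosin gene Tmsb10 at 380 ± 17.5 CPM. Tmsb4x and Tmod2 were below and Wasf3 had no count.

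Unconventional myosins, motors that carry cargo or tension rather than form thick filaments, were led by 3 genes. Myo10 (chromosome 15, 25622525 to 25813673, plus strand), the motor of filopodia, stood at 638, 639 and 618 CPM. Myo1c (chromosome 11, 75650504 to 75673910, plus strand), a membrane-linked motor, stood at 394, 404 and 396 CPM, and Myo7a, known from hair cells and pigment epithelium, at 215, 209 and 209 CPM. Their levels did not overlap in CPM. Per kilobase of exon, however, Myo10 (34.3 ± 0.246%) and Myo1c (33.3 ± 0.537%) were close, and per kilobase of coding sequence Myo1c was ahead at 38.4%, against 31.4% for Myo10. Myo7a held 13.6 ± 0.183% per kilobase of exon.

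A second tier of unconventional myosins followed. Myo18a stood at 102 ± 4.99 CPM, and Myo9b and Myo9a at 97.8 ± 0.584 and 30.8 ± 1.44 CPM. Myo6, the motor that moves toward the minus end, stood at 27.4 ± 1.48 CPM, Myo19, a motor of mitochondria, at 26.9 ± 2.07 CPM, and Myo1e at 17.96 ± 1.45 CPM. Myo1h came last at 5.21 ± 0.970 CPM, with fractional counts and 24.3% of its words shared with the neighbour Kctd10. Values of Myo6 and Myo19 overlapped between libraries, and this pair cannot be ranked.

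The remaining 12 unconventional myosins were at or near the floor. Myo1g and Myo1f, of leukocytes, had 3 reads and none, and of 5 leukocyte markers Laptm5 and Cd79a were below 1 CPM and Cd3g, Csf1r and Tyrobp had no count. Myo5b and Myo5c, motors of epithelial recycling, had 1 and 2 reads. Myo7b had 2 reads and Myo1d 1 read. Myo15, of hair cells, had 3 reads, all of them in replicate 1. These 6 with reads, from Myo1g to Myo15, were below 1 CPM (edgeR adjusted p between 6.10e-04 and 0.00361). Without replicate 1 Myo5c was unresolved, and so was Myo15 without replicate 2 or 3 (edgeR adjusted p = 0.051, 0.0532 and 0.0571). Their ranges over the alternatives were 4.88e-10 to 0.218 for Myo5c and 5.42e-09 to 0.29 for Myo15. Myo1a, of the intestinal brush border, was unresolved at 0.532 ± 0.283 CPM (edgeR adjusted p = 0.056, range 0.00108 to 0.848), and Myo16, Myo18b, Myo3a and Myo3b had no count.

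The 20 calls below 1 CPM rest on few reads. They fell to 10 without replicate 2, where 7 of the 20 had no read left, and stood at 16 without replicate 1 and 15 without replicate 3. DESeq2's Wald test called 0 members below, also at an unadjusted p under 0.05, whereas the exact Poisson test called 21.

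The 3 libraries differed by little, and beyond counting error in 6 members. These were 6 of the 55 members with a mean of at least 10 counts (10.9%), against 3.31% of the 11000 genes tested in the same way (Poisson deviance test, adjusted over those genes). Depth enters this count: of 74 genes at 1000 CPM or more, 58.1% varied, and all 5 members at that level did. From 100 to 1000 CPM 0 of 24 members varied, against 7.50% of 2388 genes, and below 100 CPM 1 of 26, against 1.66%. The coefficient of variation had a median of 4.01% over the 55 members and 5.08% over the 11000 genes. Depth enters here too: at 100 CPM or more the median was 2.95% over 29 members and 2.80% over 2462 genes.

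Tuba1b had the smallest p, at 4.57% below its mean in replicate 1 and 5.58% above it in replicate 3, a range of 1.11-fold (adjusted p = 1.37e-24). Actg1 ranged 1.07-fold (1.10e-08), Actb 1.05-fold (3.25e-04) and Tubb5 1.05-fold (0.00167), and each of these 4 was highest in replicate 3. Of the 364 genes of the whole table that varied, 35.7% were highest in replicate 3 and 35.4% in replicate 1. Cfl1 ranged 1.08-fold and was lowest in replicate 1 (3.71e-06). Of the 6, Atat1 had the widest range, 1.74-fold, and was lowest in replicate 3 (0.0078), at 8.59 CPM, against 13.5 and 14.9 CPM in replicates 1 and 2. Without replicate 3 only Tuba1b and Cfl1 of these 6 still passed (adjusted p = 0.0178 and 1.13e-05), and without replicate 1 Cfl1 did not (0.788). Atat1 did not pass without replicate 2 (0.0574). Tube1, Tpm4, Tuba1c and Tpm3 were also highest in replicate 3 but did not pass (adjusted p between 0.0632 and 0.086). Tube1 ranged 2.08-fold, wider than any of the 6. Without replicate 2, Tube1 and Tpm4 passed (adjusted p = 0.0325 each).

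**Figure D4:**
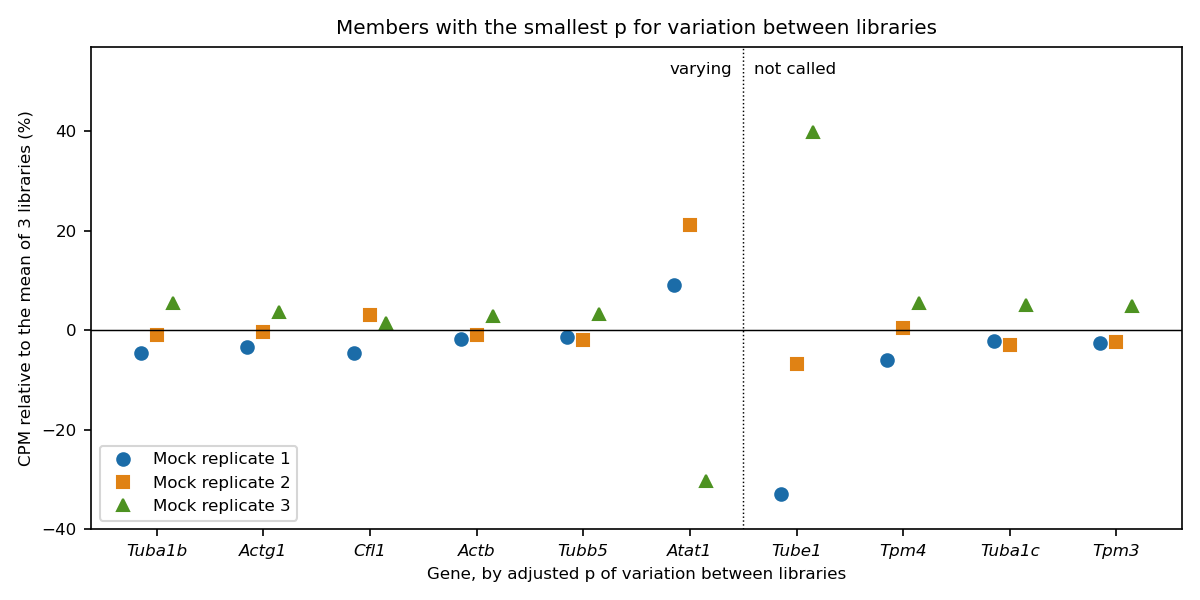
Level of the 10 members with the smallest p for variation, as percent above or below the gene's mean over the 3 Mock libraries (vertical axis), with 1 symbol per library. Left of the dotted line are the 6 that varied. Replicate 3 stands highest for Tuba1b, Actg1, Actb and Tubb5 and lowest for Atat1.

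Among the listed regulators, Pfn1, whose product loads actin monomers, also varied, at 799.8, 834 and 873 CPM in replicates 1, 2 and 3 (adjusted p = 4.21e-05), as did Srf at 60.6, 62.1 and 73.8 CPM (0.024). Both were highest in replicate 3, as were 35.7% of the 364 genes of the whole table that varied. Tmsb10 and Rock2 varied too (0.0212 and 0.0209), and both were highest in replicate 2. No gene of the tubulin folding and modification list or of the microtubule-associated protein list passed. Of all genes tested for variation 3.31% passed, so the lack of any call in lists of 21 and 16 genes cannot be told apart from that share.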

How the data were processed

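The authors' deposited table holds an estimated count for each gene symbol in each of the 3 Mock samples, unnormalized and not pooled, per the file headers. The submitters' processing notes name GRCm38.p6 as build. The sources used here name no aligner, counter, annotation or use of strand, so reads of overlapping genes and close copies are uncertain. A value was fractional by more than 0.005 in 2270 rows and 21 members. After rounding, a level of 1 CPM corresponds to 28.2 reads over the group.

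Each gene's level was set against 1 CPM in edgeR 4.0.16 (R 4.3.3): an intercept was fitted with TMM offsets, and its two-sided quasi-likelihood F test, bounded by the Poisson test, was adjusted after Benjamini-Hochberg over 14408 genes. A deviance test on 2 degrees of freedom asked whether libraries differed beyond Poisson counting. DESeq2 1.42.0 was an alternative, and both tests were tested on simulated data. Exon lengths and positions came from GENCODE M21 (GRCm38) for 92 members, and shares were taken per kilobase of merged exon. Intervals are exact (Clopper-Pearson, scipy 1.17.1), alignments used biopython 1.88, and plots matplotlib 3.10.9.

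Members and lists were chosen with earlier results of these data known. By rule the text names, per family, the 6 highest members and those with no count, unresolved or varying, and per list the 3 highest genes and those with no count. Any further gene was picked once its values were known. Some items are not reported here.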

Additional observations from a re-analysis of the deposited data

How the results depend on the processing

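The count of members above 1 CPM was 53 by DESeq2's Wald test and 55 in every other setting that tested against 1 CPM. Against 0.5 CPM 56 members were above, and against 2 CPM 54. The count of members below, 20 in the reported test, was 0 by DESeq2's Wald test and 10 to 16 with each replicate left out. Restricting to genes with at least 10 counts could not test these calls, since the 20 members had 1 to 8 reads and were all left out. The 1 member called below in that setting was unresolved in the reported test. The 6 varying members were 2 to 7 with each replicate left out. The leading shares moved with the length used. Tuba1b was at 72.9% per coding kilobase. Tubb5 was at 68.1% in reads and 68.2% per coding kilobase, Tpm4 at 19.99% and 23.6%, Myh9 at 89.4% and 89.7%, Myo10 at 40.1% and 31.4%, Myl12a at 62.2% and 73.0%, and Arpc2 at 14.5% and 12.5%. The 62.2% for Myl12a counts Myl12b, which the shares per kilobase leave out for lack of a length. Without Myl12b it is 74.4%, an alternative chosen after seeing the data, as were the ratios in reads and per coding kilobase. Of the comparisons of single members with a level under other settings, 807 kept direction and side, 33 lost the call, 7 gained one and 1 reversed: Myl4, unresolved at 1 CPM, lay at a log2 distance of -0.96 from 2 CPM and was called below it. No paired analysis was possible because there is only 1 group. Depth limits statements on members with under about 10 reads to upper limits.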
